A study of Danio rerio with 20 samples.

Results

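The respiratory chain is described here through 122 of the 32520 genes counted in zebrafish larvae. The members were the genes whose symbols begin with nduf, sdh followed by a to d, uqcr, cox followed by 4 to 8, or atp5, together with cyc1 and the 13 protein genes of the mitochondrial genome. Of these, 109 lie in the nucleus and 13 in the mitochondrion. The nuclear genes comprised 38 of complex I, 5 of complex II, 9 of complex III, 24 of complex IV, 18 of complex V, and 15 assembly factors and related proteins. The mitochondrial genes comprised 7 of complex I, 1 of complex III, 3 of complex IV and 2 of complex V. The measurement was strand-specific mRNA sequencing of whole larvae, with 4 genotypes and 5 libraries of each. The double knockout (DKO) lacks both glo1 and aldh3a1, the aldh3a1 knockout (ALDH3A1KO) and the glo1 knockout (GLO1KO) lack one each, and wild type (WT) lacks neither. All 4 genotypes carry Tg(fli1:EGFP), a transgene in which the promoter of the endothelial gene fli1 drives green fluorescent protein, and the knockouts were made with CRISPR/Cas9. glo1 encodes glyoxalase 1 and aldh3a1 an aldehyde dehydrogenase, both of which can remove methylglyoxal, a reactive by-product of glycolysis. The age of the larvae, the number of larvae in each library and the number of founder lines are not given in the labels.

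The respiratory chain passes electrons from NADH, at complex I, and from succinate, at complex II, through complex III and cytochrome c to oxygen at complex IV. Complexes I, III and IV pump protons across the inner mitochondrial membrane, and complex V, the ATP synthase, uses the return of the protons to make ATP. Complex II is encoded wholly in the nucleus, whereas the other complexes combine subunits from both genomes, and dedicated assembly factors put them together. Muscle, heart and brain are tissues rich in these complexes.

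Each library held 35092716 to 37190519 counts. Values are given as CPM, the counts of a gene relative to the library total, after scaling of library size with TMM factors, and a gene was called higher or lower at an adjusted p under 0.05 in a quasi-likelihood fit over all 22234 genes tested. Libraries of one genotype differed by more than sampling noise. The labels do not say whether they came from separate clutches, so the replicate spread behind each p-value may be technical. glo1 itself had 3.38, 3.95, 4.39, 4.42 and 5.35 CPM in the double knockout and 4.22, 3.62, 3.56, 3.61 and 3.28 CPM in the glo1 knockout, against 77.2, 74.9, 77.7, 81.7 and 81.1 CPM in the aldh3a1 knockout and 66.3, 62.2, 63.6, 71.4 and 69.6 CPM in wild type. Its level followed the genotype labels in all 20 libraries. No gene ID carried the symbol aldh3a1, so that label was not checked here. Of the 122 members, 120 passed the filter on low counts, and ndufb4 and ndufs1, with means of 1.9 and 0.75 counts per library, did not.

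The share of all counts that came from the 13 mitochondrial genes was larger in every knockout than in wild type. It was 3.37, 3.52, 3.44, 3.72 and 3.32% in the double knockout, 3.65, 3.9, 3.83, 4.28 and 3.98% in the aldh3a1 knockout and 3.13, 3.29, 3.35, 3.31 and 3.26% in the glo1 knockout, against 2.93, 2.56, 2.74, 3.16 and 3% in wild type. The double and aldh3a1 knockouts lay wholly above wild type, and the lowest glo1 knockout library lay below the highest wild type library. The difference from wild type was 0.598 percentage points in the double knockout, 1.05 in the aldh3a1 knockout and 0.393 in the glo1 knockout (two-sided exact permutation tests, adjusted p = 0.0265 for each, over a family of 10 tests in which the smallest unadjusted p is 0.00794). The double knockout differed by -0.455 percentage points from the aldh3a1 knockout and by 0.205 from the glo1 knockout (adjusted p = 0.0265 for both exact tests). With TMM scaling, the double knockout differed by 0.932 from wild type (exact p = 0.00794), by -0.343 from the aldh3a1 knockout (exact p = 0.0952) and by 0.34 from the glo1 knockout (exact p = 0.0159). The aldh3a1 and glo1 knockouts then differed from wild type by 1.27 and 0.591 (exact p = 0.00794 for both). In whole larvae, a change in the number of cells of a type cannot be told apart from a change in RNA per cell.

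The nuclear members as a sum held a smaller share of counts in the double and aldh3a1 knockouts. They made up 1.39, 1.47, 1.47, 1.36 and 1.37% of counts in the double knockout, 1.41, 1.39, 1.32, 1.36 and 1.39% in the aldh3a1 knockout and 1.49, 1.47, 1.51, 1.46 and 1.51% in the glo1 knockout, against 1.54, 1.49, 1.5, 1.54 and 1.42% in wild type. All aldh3a1 knockout libraries lay below all wild type libraries, and the other 2 knockouts overlapped wild type. The exact permutation test gave a difference from wild type of -0.122 percentage points in the aldh3a1 knockout (adjusted p = 0.0265), -0.0857 in the double knockout (adjusted p = 0.0496) and -0.00953 in the glo1 knockout (adjusted p = 0.738). The double knockout call was lost without any one of double knockout replicates 1, 4 and 5 and wild type replicates 1, 2, 3 and 4, where the difference was -0.0866 to -0.072. An exact test on fewer libraries has fewer arrangements and a larger smallest p. Such a loss thus does not by itself show that the difference rests on the library. Without wild type replicate 2 the difference was -0.0866, larger in size than with all libraries. The differences depended on scaling. With TMM factors the summed nuclear level differed from wild type by 0.0682 percentage points in the double knockout (exact p = 0.206), by -0.0161 in the aldh3a1 knockout (exact p = 0.698) and by 0.0909 in the glo1 knockout (exact p = 0.0159). The log2 ratio of mitochondrial to nuclear counts needs no scaling between libraries. It exceeded wild type by 0.36 in the double knockout, 0.57 in the aldh3a1 knockout and 0.20 in the glo1 knockout, with adjusted p = 0.0223, 0.0223 and 0.0397 in exact permutation tests adjusted over 45 tests.

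**Figure D1:**
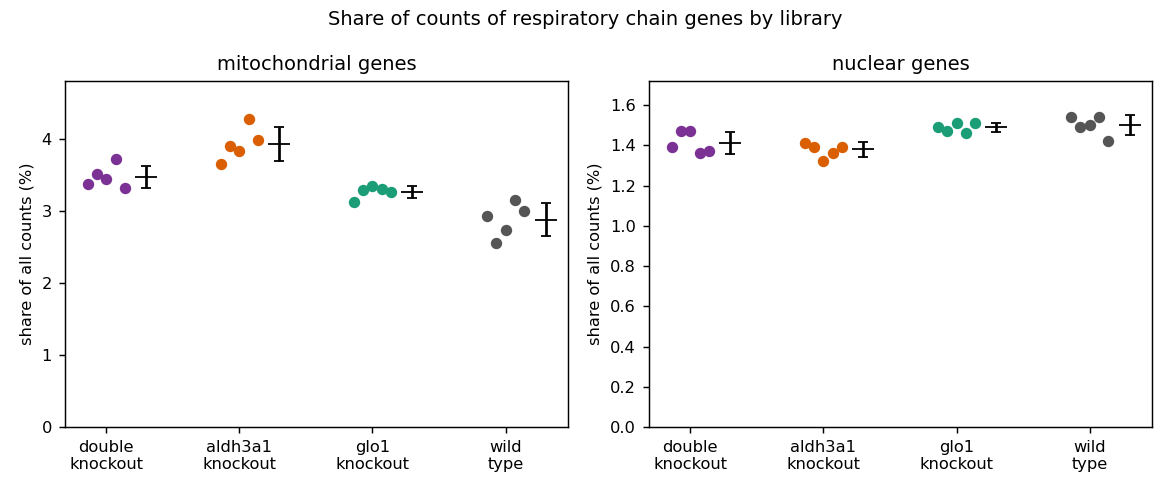
Share of all counts (%, y axis from 0) from the 13 mitochondrial and the 109 nuclear respiratory chain genes, 1 point per library, with the mean and SD of the 5 libraries of each genotype as a bar beside the points. The mitochondrial share averaged 3.47% in the double knockout, 3.93% in the aldh3a1 knockout and 3.27% in the glo1 knockout, against 2.88% in wild type, while the nuclear share stayed between 1.32% and 1.54% in all libraries.

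Gene by gene, most mitochondrial transcripts were higher in the double and aldh3a1 knockouts. In the double knockout 9 of 13 were called higher and 1 lower, beside 23.9% of all genes called higher and 26.4% lower. In the aldh3a1 knockout 11 were called higher and 2 lower, beside 29.4% and 32.0% of all genes. In the glo1 knockout 6 of 13 were called higher, beside 14.6% of all genes higher and 18.1% lower, and the remaining 7 were not called. The median log2 fold change against wild type was 0.32 in the double knockout, 0.57 in the aldh3a1 knockout and 0.18 in the glo1 knockout, whereas the median over all genes tested was 0.0132, -0.001 and -0.0096 in the same order. These 3 comparisons share the same 5 wild type libraries.

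The largest rise in the double and aldh3a1 knockouts was that of mt-nd6, a membrane subunit of complex I. It had 742, 722, 786, 882 and 689 CPM in the double knockout and 768, 845, 846, 1141 and 1056 CPM in the aldh3a1 knockout. The glo1 knockout had 561, 609, 635, 586 and 508 CPM, against 455, 382, 426, 513 and 449 CPM in wild type. Every double and aldh3a1 knockout library exceeded every wild type library, and the lowest glo1 knockout library fell just inside the wild type range. The log2 fold change was 0.78 (SE 0.10, adjusted p = 1.38e-06) in the double knockout, 1.07 (SE 0.10, adjusted p = 9.87e-09) in the aldh3a1 knockout and 0.38 (SE 0.10, adjusted p = 0.0052) in the glo1 knockout. mt-nd6 is the one member on the opposite strand of the mitochondrial genome and overlaps mt-nd5 in the RefSeq annotation. The strand setting of the counting was not stated, and without strand the reads within the overlap of the 2 genes cannot be told apart.

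The 3 mitochondrial genes of complex IV, whose products form the catalytic core of cytochrome c oxidase, were called higher in each knockout. mt-co2, which receives electrons from cytochrome c, had 5295, 5705, 5593, 6207 and 5548 CPM in the double knockout and 5742, 5838, 5847, 6946 and 7024 CPM in the aldh3a1 knockout. Its level in the glo1 knockout was 4643, 5084, 5352, 5160.4 and 4842 CPM, against 3755, 3298, 3756, 4152 and 3813 CPM in wild type. No knockout library of mt-co2 overlapped the wild type range. Its log2 fold change was 0.59 (SE 0.07, adjusted p = 2.15e-07) in the double knockout, 0.74 (SE 0.07, adjusted p = 3.18e-09) in the aldh3a1 knockout and 0.42 (SE 0.07, adjusted p = 1.02e-04) in the glo1 knockout. mt-co3 had log2 fold changes of 0.58, 0.70 and 0.42 in the same order of knockouts, also without overlap with wild type. mt-co1, the subunit that reduces oxygen, had log2 fold changes of 0.39, 0.42 and 0.25 in that order, with some overlap between glo1 knockout and wild type libraries. mt-cyb, the cytochrome b of complex III, rose by 0.34 in the double knockout, 0.47 in the aldh3a1 knockout and 0.21 in the glo1 knockout on the log2 scale. Its call in the glo1 knockout was lost without wild type replicate 2 (adjusted p = 0.0534).

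The 2 mitochondrial subunits of the ATP synthase went separate ways. mt-atp6, a part of the proton channel, had 3676, 3878, 3947, 4133 and 3627 CPM in the double knockout and 3444, 3775, 3437, 4369 and 4084 CPM in the aldh3a1 knockout. Levels in the glo1 knockout were 3409, 3684, 3583, 3759 and 3373 CPM, against 2613, 2614, 2759.9, 2733 and 2426 CPM in wild type. All knockout libraries lay above all wild type libraries, and the log2 fold change was 0.55 (SE 0.06, adjusted p = 2.14e-07) in the double knockout, 0.54 (SE 0.06, adjusted p = 1.03e-07) in the aldh3a1 knockout and 0.44 (SE 0.06, adjusted p = 3.22e-05) in the glo1 knockout. mt-atp8, a small subunit encoded by a gene that overlaps mt-atp6, had 247, 290.5, 272, 302 and 234 CPM in the double knockout and 228, 234, 224, 264 and 234 CPM in the aldh3a1 knockout. The glo1 knockout libraries held 304, 326, 270.3, 311 and 307 CPM, against 281, 294, 303, 281 and 247 CPM in wild type. Its libraries overlapped wild type in all 3 knockouts. It fell in the aldh3a1 knockout, with a log2 fold change of -0.25 (SE 0.07, adjusted p = 0.00354), and was not called in the double knockout (-0.06, adjusted p = 0.459) or the glo1 knockout (0.11, adjusted p = 0.233).

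Among the mitochondrial genes of complex I, several had their highest levels in the aldh3a1 knockout. mt-nd3 had 276, 273, 277, 311 and 261 CPM in the double knockout and 407, 518, 458, 514 and 452 CPM in the aldh3a1 knockout. Its glo1 knockout values were 241, 255, 318, 235 and 264 CPM, against 314, 203, 215, 333 and 275 CPM in wild type. The aldh3a1 knockout libraries stood wholly above the other 3 genotypes, which overlapped one another. Its log2 fold change was 0.81 (SE 0.12, adjusted p = 7.22e-06) in the aldh3a1 knockout, against 0.06 in the double knockout (adjusted p = 0.694) and -0.03 in the glo1 knockout (adjusted p = 0.875). mt-nd2 had the same kind of profile, at 0.61 in the aldh3a1 knockout (adjusted p = 1.71e-05), with 0.05 and -0.09 in the double and glo1 knockouts, neither called. mt-nd1 and mt-nd4 were called higher in the double knockout (0.26 and 0.32) and in the aldh3a1 knockout (0.57 and 0.65), and the aldh3a1 knockout libraries of both exceeded those of every other genotype. mt-nd5 rose by 0.36 in the aldh3a1 knockout and 0.16 in the double knockout, and the second call was lost when any one of double knockout replicates 1, 2 and 4 and wild type replicates 2, 3 and 5 was left out (adjusted p 0.0624 to 0.14) or with upper-quartile factors or a minimum mean of 1 CPM or the non-robust fit.

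mt-nd4l was the exception among the complex I genes. It had 125, 135, 138, 146 and 118 CPM in the double knockout and 126, 155, 148, 166 and 130.3 CPM in the aldh3a1 knockout. The glo1 knockout had 166, 158, 157, 150.5 and 177 CPM, against 202, 158, 137, 188 and 164 CPM in wild type. Each knockout overlapped wild type, whose own libraries spread widely. Its log2 fold change was -0.36 (SE 0.09, adjusted p = 0.0019) in the double knockout and -0.23 (SE 0.09, adjusted p = 0.0317) in the aldh3a1 knockout, and the second call was lost when any one of aldh3a1 knockout replicates 1 and 5 and wild type replicates 1 and 4 was left out (adjusted p 0.0867 to 0.121) or with a fit of the 2 genotypes alone. mt-nd4l overlaps mt-nd4 in the annotation, and mt-atp8 overlaps mt-atp6, so both genes that were called lower share sequence with a neighbour that was called higher. How reads in the overlaps were assigned was not stated, and its part in these values was not tested.

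**Figure D2:**
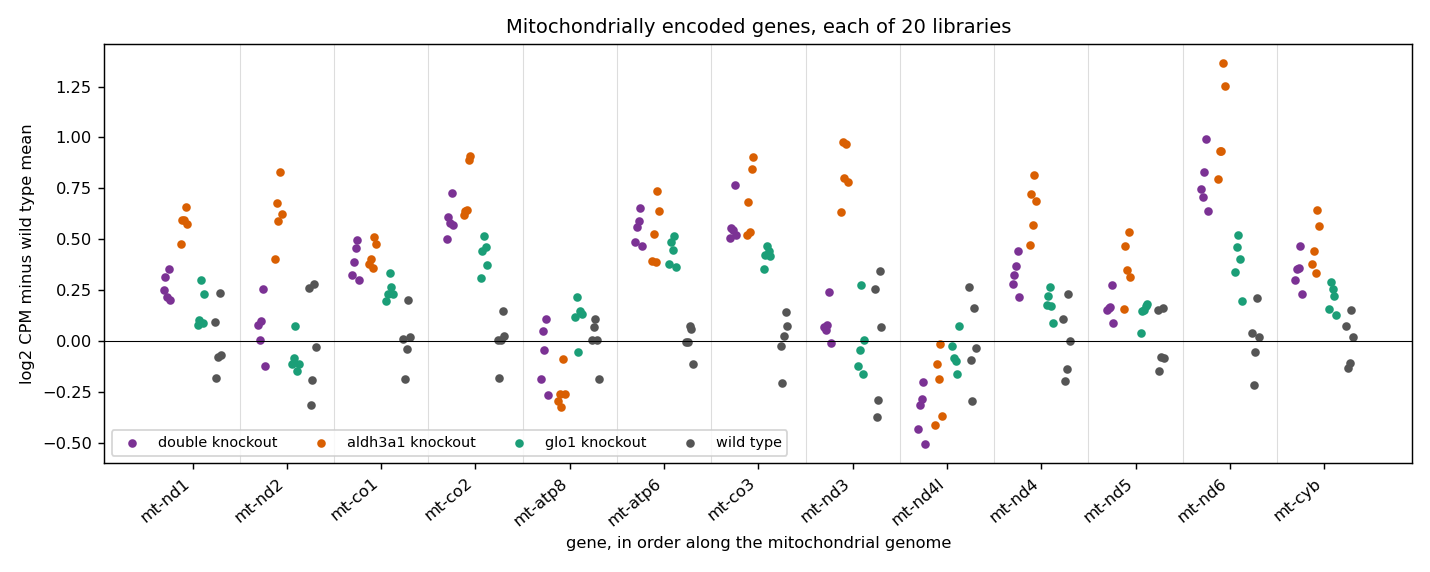
log2 CPM of each mitochondrial gene in each of the 20 libraries, less the mean of the 5 wild type libraries, with genes in their order along the mitochondrial genome (x axis) and 1 point per library coloured by genotype. The aldh3a1 knockout points stand above the rest for mt-nd1, mt-nd2, mt-nd3 and mt-nd4, all knockouts stand above wild type for mt-co2, mt-co3 and mt-atp6, and mt-atp8 and mt-nd4l show no rise.

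The make-up of the mitochondrial counts themselves shifted. mt-nd6 made up 2.1 ± 0.0971% of the counts of the 13 genes in the double knockout, 2.33 ± 0.215% in the aldh3a1 knockout and 1.76 ± 0.105% in the glo1 knockout, against 1.64 ± 0.0389% in wild type (mean ± SD, n = 5 each). mt-co2 made up 15.6 ± 0.41% in the double knockout, 15.8 ± 0.585% in the aldh3a1 knockout and 15.2 ± 0.311% in the glo1 knockout, against 13.9 ± 0.309% in wild type. mt-nd4l made up 0.364 ± 0.0121% in the double knockout, 0.366 ± 0.0389% in the aldh3a1 knockout and 0.492 ± 0.0443% in the glo1 knockout, against 0.628 ± 0.0759% in wild type. These shares depend on no scaling between libraries and were given no test.

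The nuclear members did not move as a block. In the double knockout 50 of 107 tested nuclear members were called higher and 12 lower, with a median log2 fold change of 0.15, against 23.9% and 26.4% of all genes. In the aldh3a1 knockout 45 were called higher and 18 lower (median 0.09), against 29.4% and 32.0% of all genes. In the glo1 knockout 45 were called higher and 1 lower (median 0.15), against 14.6% and 18.1% of all genes. With upper-quartile scaling the split in the aldh3a1 knockout was 38 higher and 25 lower. Over all genes that scaling called 5700 higher and 7696 lower there, against 6527 and 7110 in the main fit. The 1 lower gene in the glo1 knockout was ndufa9b, and 4 genes were called lower there without wild type replicate 5. Summed skeletal muscle markers were 34680.2 to 53945 CPM in the aldh3a1 knockout, against 68747 to 83080.0 CPM in wild type, and their part in the lower nuclear members of that knockout was not tested.

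**Figure D3:**
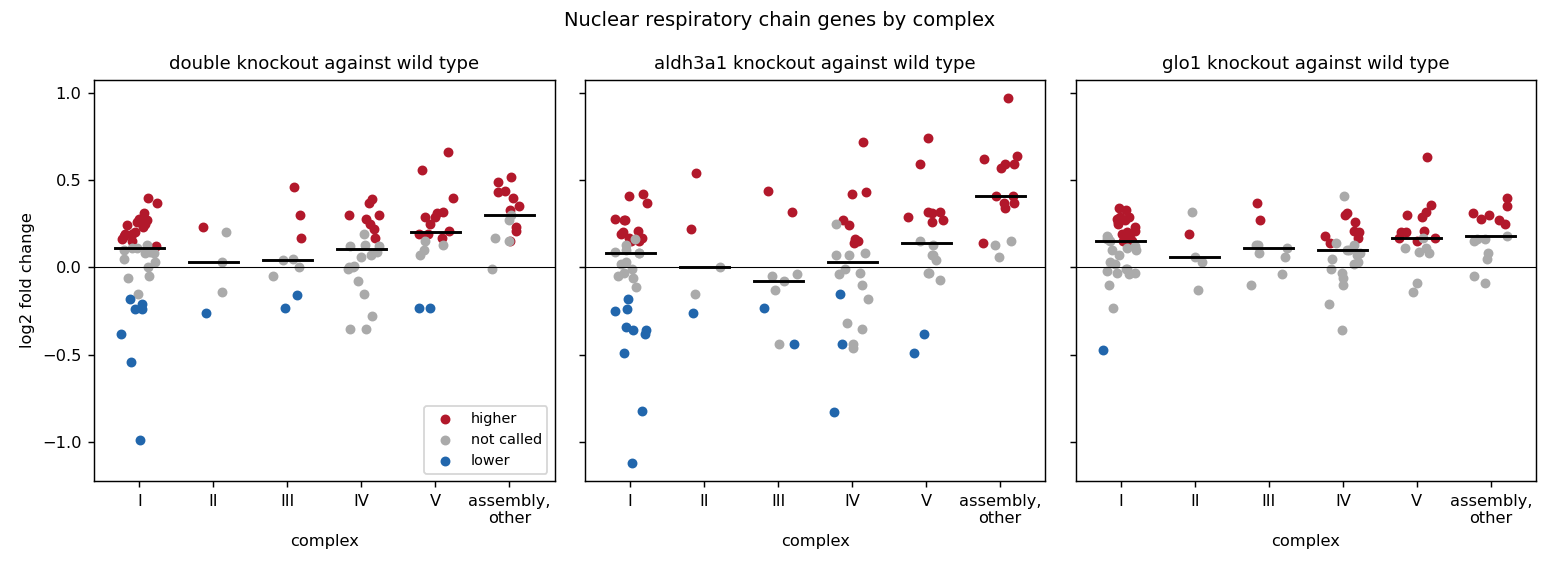
log2 fold change against wild type (y axis) of each tested nuclear member, grouped by complex (x axis), in the double knockout, the aldh3a1 knockout and the glo1 knockout, with 1 point per gene coloured by its call and a bar at the median. Assembly factors and related proteins have the highest median in all 3 panels, 0.30, 0.41 and 0.18, and members called lower are found mainly in the double and aldh3a1 knockouts.

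Of 36 tested nuclear subunits of complex I, 16 were called higher and 7 lower in the double knockout, 13 and 10 in the aldh3a1 knockout, and 16 and 1 in the glo1 knockout. Of all genes 23.9% were called higher and 26.4% lower in the double knockout, 29.4% and 32.0% in the aldh3a1 knockout, and 14.6% and 18.1% in the glo1 knockout, so that both complex I counts in the aldh3a1 knockout lay near the share over all genes. ndufb11, an accessory subunit of the membrane arm, had 15.6, 17.7, 19.9, 15.9 and 16.6 CPM in the double knockout and 17, 12.9, 13.5, 13.8 and 13.6 CPM in the aldh3a1 knockout. Its level in the glo1 knockout was 23.4, 19.9, 21.7, 20.6 and 21 CPM, against 28, 28.4, 24.3, 25.5 and 18.4 CPM in wild type. The aldh3a1 knockout lay wholly below wild type, and the double knockout overlapped it only through wild type replicate 5, the lowest of its group. On the log2 scale the change was -0.54 (SE 0.10, adjusted p = 8.51e-05) in the double knockout and -0.82 (SE 0.10, adjusted p = 2.07e-07) in the aldh3a1 knockout, and -0.23 in the glo1 knockout (adjusted p = 0.0815). ndufb6, another accessory subunit of that arm, had log2 fold changes of -0.38 in the double knockout and -0.49 in the aldh3a1 knockout, both called, and -0.10 in the glo1 knockout, not called.

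ndufv1, the subunit that binds NADH, fell in the aldh3a1 knockout. It had 290.2, 331, 350.2, 309 and 274 CPM in the double knockout and 266, 244, 233, 269 and 279 CPM in the aldh3a1 knockout. Levels in the glo1 knockout were 331, 298, 298, 286 and 300.5 CPM, against 323, 306, 311, 315 and 272 CPM in wild type. The aldh3a1 knockout overlapped the lowest wild type library only, and its log2 fold change was -0.24 (SE 0.07, adjusted p = 0.00269), against 0.03 in the double knockout (adjusted p = 0.771). ndufb1, a small accessory subunit, was higher in all 3 knockouts. It had 66.6, 67.4, 72.3, 72.4 and 65 CPM in the double knockout and 70.3, 67.7, 59.5, 65.5 and 86.2 CPM in the aldh3a1 knockout. The glo1 knockout libraries held 66.1, 69.2, 67.1, 67.1 and 60.7 CPM, against 47.6, 45.6, 57.1, 58.2 and 52.8 CPM in wild type. No knockout library fell into the wild type range, and the log2 fold change was 0.40 (SE 0.08, adjusted p = 1.90e-04) in the double knockout, 0.42 (SE 0.08, adjusted p = 6.36e-05) in the aldh3a1 knockout and 0.34 (SE 0.08, adjusted p = 0.00219) in the glo1 knockout. ndufs8, an iron-sulphur subunit, rose by 0.33 in the glo1 knockout (adjusted p = 4.34e-04) with no overlap with wild type, against 0.08 in the double knockout, which was not called. Its call in the aldh3a1 knockout, at 0.15, was lost when any one of aldh3a1 knockout replicates 4 and 5 and wild type replicates 1, 2, 3 and 5 was left out (adjusted p 0.0537 to 0.106) or with upper-quartile factors or a minimum mean of 1 CPM. The most negative value was that of ndufa9b, which RefSeq lists as a pseudogene, at -0.99 in the double knockout, -1.12 in the aldh3a1 knockout and -0.47 in the glo1 knockout, and the last call was lost when any one of glo1 knockout replicates 1, 2, 4 and 5 and wild type replicates 1, 3 and 5 was left out (adjusted p 0.0594 to 0.0865). Its counts may include reads from ndufa9, which was itself called lower in the double knockout (-0.24) and the aldh3a1 knockout (-0.36).

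Complex II had its flavoprotein lower and a membrane anchor higher in the double and aldh3a1 knockouts. Of its 5 genes, 1 was called higher and 1 lower in the double knockout, 2 and 1 in the aldh3a1 knockout, and 1 and 0 in the glo1 knockout. Among all genes the shares were 23.9% and 26.4%, 29.4% and 32.0%, and 14.6% and 18.1% in that order. With so few genes, these counts lay near those shares. sdha, the flavoprotein which oxidises succinate, had 112, 128, 127, 117 and 103 CPM in the double knockout and 115, 118, 109.8, 124 and 118 CPM in the aldh3a1 knockout. Its glo1 knockout values were 149, 119.9, 125, 124 and 123 CPM, against 139.6, 159.6, 144, 141 and 117 CPM in wild type. Each knockout overlapped wild type, and the log2 fold change was -0.26 (SE 0.07, adjusted p = 0.00534) in the double knockout and -0.26 (SE 0.07, adjusted p = 0.00355) in the aldh3a1 knockout, with -0.13 in the glo1 knockout (adjusted p = 0.176). sdhb, the iron-sulphur subunit, was not called in any of the 3 comparisons, at 0.03, 0.00 and 0.03. One of 2 gene IDs named sdhd, a membrane anchor (ENSDARG00000030139), rose by 0.23 in the double knockout, 0.22 in the aldh3a1 knockout and 0.19 in the glo1 knockout. The other ID (ENSDARG00000055712) had 0.20, 0.54 and 0.32 in that order. It was called in the aldh3a1 knockout alone (adjusted p = 0.0468), and that call was lost when any one of aldh3a1 knockout replicates 4 and 5 and wild type replicates 1, 3 and 4 was left out (adjusted p 0.0852 to 0.147) or with upper-quartile factors or no filter beyond 1 count or a replicate block or a fit of the 2 genotypes alone.

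Complex III had genes called in both directions in the double and aldh3a1 knockouts. Of its 9 nuclear genes, 3 were called higher and 2 lower in the double knockout, 2 and 2 in the aldh3a1 knockout, and 2 and 0 in the glo1 knockout. Among all genes the shares were 23.9% and 26.4%, 29.4% and 32.0%, and 14.6% and 18.1% in that order. With so few genes, the counts in the double and aldh3a1 knockouts lay near those shares. uqcrc1, a core protein of the matrix face, had 185, 199, 208, 179 and 176 CPM in the double knockout and 168, 158, 152, 166 and 174 CPM in the aldh3a1 knockout. The glo1 knockout had 211, 203, 201, 206 and 217 CPM, against 223, 233, 231, 227 and 197 CPM in wild type. The aldh3a1 knockout lay below all other genotypes without overlap, and the double knockout overlapped wild type. This gave a log2 fold change of -0.23 (SE 0.06, adjusted p = 0.00132) in the double knockout and -0.44 (SE 0.06, adjusted p = 2.79e-07) in the aldh3a1 knockout, and -0.10 in the glo1 knockout (adjusted p = 0.183). uqcrc2, the partner core protein, had -0.23 in the aldh3a1 knockout (adjusted p = 5.72e-04) and -0.16 in the double knockout. The second call was lost when any one of double knockout replicate 4 and wild type replicate 2 was left out (adjusted p 0.0535 to 0.0543) or with a fit of the 2 genotypes alone. The related gene uqcrc2a went the other way in the double knockout, at 0.17 without overlap with wild type (adjusted p = 0.0248). That call was lost without double knockout replicate 2 or wild type replicate 5 (adjusted p 0.0671 to 0.0827). uqcrc2a was not called in the aldh3a1 knockout (-0.13) or the glo1 knockout (0.11).

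uqcr10, a small subunit of complex III, was higher in all 3 knockouts. It had 102, 134, 110.2, 109 and 112 CPM in the double knockout and 107, 104, 103, 120.4 and 126 CPM in the aldh3a1 knockout. Its level in the glo1 knockout was 104, 109, 109, 107 and 107 CPM, against 77, 83.4, 87, 85 and 80.2 CPM in wild type. All knockout libraries exceeded all wild type libraries, and the log2 fold change was 0.46 (SE 0.07, adjusted p = 3.13e-06) in the double knockout, 0.44 (SE 0.07, adjusted p = 2.64e-06) in the aldh3a1 knockout and 0.37 (SE 0.07, adjusted p = 1.74e-04) in the glo1 knockout. uqcrh, the hinge protein, followed with 0.30, 0.32 and 0.27 in that order of knockouts, all called. The catalytic subunits cyc1 and uqcrfs1, which carry the haem of cytochrome c1 and the Rieske iron-sulphur centre, were not called in any comparison with wild type, with log2 fold changes of 0.05, -0.05 and 0.06 for cyc1 and -0.05, -0.08 and 0.08 for uqcrfs1.

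Of 24 nuclear genes of complex IV, 8 were called higher in each knockout, and the aldh3a1 knockout had 3 called lower. Over all genes 23.9% were called higher in the double knockout, 29.4% in the aldh3a1 knockout and 14.6% in the glo1 knockout, and 32.0% lower in the aldh3a1 knockout, where the complex IV count of higher genes was close to that share. cox4i2, known in mammals as the isoform of subunit 4 linked to low oxygen, had 51.2, 51.4, 56.7, 52.2 and 54.3 CPM in the double knockout and 60.4, 51, 51.4, 53.7 and 60.5 CPM in the aldh3a1 knockout. Levels in the glo1 knockout were 45.9, 49.4, 52.4, 53.8 and 44.9 CPM, against 42.9, 34.4, 39.9, 42.3 and 46.1 CPM in wild type. The double and aldh3a1 knockouts exceeded every wild type library, and the glo1 knockout overlapped wild type. Relative to wild type the log2 fold change was 0.37 (SE 0.07, adjusted p = 1.38e-04) in the double knockout, 0.43 (SE 0.07, adjusted p = 1.36e-05) in the aldh3a1 knockout and 0.26 (SE 0.07, adjusted p = 0.00708) in the glo1 knockout, whereas its partner isoform cox4i1 was not called, at 0.06, -0.04 and 0.10.

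ndufa4l2, whose mammalian counterpart is induced by low oxygen, had the largest rise among these nuclear genes in the aldh3a1 knockout. It had 3.38, 4.76, 5.34, 4.36 and 4.12 CPM in the double knockout and 5.91, 5.36, 6.07, 4.9 and 5.43 CPM in the aldh3a1 knockout. The glo1 knockout libraries held 3.86, 4.07, 2.71, 3.92 and 3.09 CPM, against 3.35, 2.83, 3.95, 3.98 and 2.65 CPM in wild type. The aldh3a1 knockout stood above wild type without overlap, with a log2 fold change of 0.72 (SE 0.15, adjusted p = 1.41e-04). The value in the double knockout was 0.39, and that call was lost when any one of double knockout replicates 2 and 3 and wild type replicates 1, 2 and 5 was left out (adjusted p 0.0501 to 0.0888). cox7a1, the muscle isoform of subunit 7a in mammals, had a log2 fold change of -0.44 (SE 0.13, adjusted p = 0.00452) in the aldh3a1 knockout, whose libraries all lay below wild type, and was not called in the double knockout (-0.15) or the glo1 knockout (-0.06). One of 2 gene IDs named cox6a1 (ENSDARG00000054588) had -0.83 in the aldh3a1 knockout (adjusted p = 0.00185). Its double knockout value of -0.35 was not called (adjusted p = 0.174). The other ID (ENSDARG00000022438) had 0.28 in the double knockout (adjusted p = 1.88e-04) and 0.14 in the aldh3a1 knockout (adjusted p = 0.0274). The last call was lost without aldh3a1 knockout replicate 2 or 5 or wild type replicate 2 or 5 (adjusted p 0.0596 to 0.102). The same happened with upper-quartile factors, a minimum mean of 1 CPM or a fit of the 2 genotypes alone.

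In complex V 2 subunits of the catalytic head fell in the double and aldh3a1 knockouts, while many small subunits rose. Of 18 nuclear subunits, 12 were called higher and 2 lower in the double knockout and 8 and 2 in the aldh3a1 knockout, and 11 were called higher in the glo1 knockout. Over all genes 23.9%, 29.4% and 14.6% were called higher in the same order of knockouts. The larger shares of 26.4% and 32.0% of all genes were called lower in the double and aldh3a1 knockouts. The 2 lower genes in both cases were atp5f1a and atp5f1b, which encode the alpha and beta subunits of the catalytic head. atp5f1a had 1038, 1013, 1152, 1004 and 916 CPM in the double knockout and 916, 850.4, 753, 837 and 934 CPM in the aldh3a1 knockout. Its glo1 knockout values were 1124, 1027, 1109, 1059 and 1132 CPM, against 1329, 1182, 1195, 1268 and 1048 CPM in wild type. The aldh3a1 knockout lay wholly below wild type and the double knockout overlapped it, with log2 fold changes of -0.23 (SE 0.07, adjusted p = 0.00563) in the double knockout and -0.49 (SE 0.07, adjusted p = 1.05e-06) in the aldh3a1 knockout. The glo1 knockout value was -0.14 (adjusted p = 0.103).

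atp5f1b had 1362, 1349, 1467, 1354 and 1274 CPM in the double knockout and 1254, 1351, 1135, 1173 and 1241 CPM in the aldh3a1 knockout. The glo1 knockout had 1477, 1446, 1629, 1460.1 and 1524 CPM, against 1805, 1580.0, 1588, 1658 and 1366 CPM in wild type. Again the aldh3a1 knockout lay below every wild type library and the double knockout overlapped wild type. The log2 fold change was -0.23 (SE 0.06, adjusted p = 0.00364) in the double knockout and -0.38 (SE 0.06, adjusted p = 1.52e-05) in the aldh3a1 knockout, with -0.09 in the glo1 knockout (adjusted p = 0.315). The remaining nuclear subunits of the head, atp5f1c and atp5f1d, were not called, and atp5f1e rose by 0.29 in the double knockout and 0.27 in the aldh3a1 knockout.

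atp5mea, which encodes subunit e of the membrane part, where pairs of ATP synthases join, had 57.4, 53.5, 54.9, 54 and 52.7 CPM in the double knockout and 50.5, 61.2, 55.6, 63.2 and 57.5 CPM in the aldh3a1 knockout. Its level in the glo1 knockout was 53, 52.3, 58.5, 55.3 and 47.5 CPM, against 32.4, 34.1, 35.4, 39.3 and 31 CPM in wild type. All knockout libraries lay above all wild type libraries. Its log2 fold change was 0.66 (SE 0.07, adjusted p = 5.42e-08) in the double knockout, 0.74 (SE 0.07, adjusted p = 2.90e-09) in the aldh3a1 knockout and 0.63 (SE 0.07, adjusted p = 1.36e-06) in the glo1 knockout. atp5mc3, one of the genes for subunit c of the rotating ring, had 176, 208, 195, 182 and 188 CPM in the double knockout and 185, 167, 192, 215 and 213 CPM in the aldh3a1 knockout. Levels in the glo1 knockout were 170.1, 167, 151, 179 and 162 CPM, against 119, 132, 136, 136 and 124 CPM in wild type. It too was free of overlap with wild type in each knockout, with log2 fold changes of 0.56 (SE 0.07, adjusted p = 3.04e-07), 0.59 (SE 0.07, adjusted p = 5.29e-08) and 0.36 (SE 0.07, adjusted p = 2.70e-04) in the double, aldh3a1 and glo1 knockouts.

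Assembly factors of complexes I and II were mostly higher in the double and aldh3a1 knockouts. Of 12 factors named ndufaf or sdhaf, 7 were called higher in the double knockout (median log2 fold change 0.32), 11 in the aldh3a1 knockout (median 0.49) and 5 in the glo1 knockout (median 0.17), and the rest were not called. The shares of all genes called higher were 23.9%, 29.4% and 14.6% in that order. The glo1 knockout calls of ndufaf7, sdhaf1, sdhaf3 and sdhaf4 were each lost when certain single libraries were left out. So were those of ndufaf1 and ndufaf8 in the double knockout and of ndufaf1 in the aldh3a1 knockout. ndufaf8, a complex I assembly factor, had 4.56, 6.38, 4.93, 4.59 and 5.55 CPM in the double knockout and 6.25, 7.66, 7.03, 9.94 and 9.1 CPM in the aldh3a1 knockout. The glo1 knockout libraries held 4.59, 4.15, 3.22, 4 and 3.75 CPM, against 3.63, 3.39, 4.81, 4.34 and 4.24 CPM in wild type. The aldh3a1 knockout exceeded every glo1 knockout and wild type library, and the double knockout overlapped wild type. On the log2 scale the change was 0.97 (SE 0.14, adjusted p = 1.76e-06) in the aldh3a1 knockout and 0.35 (SE 0.14, adjusted p = 0.041) in the double knockout, and the second call was lost when any one of double knockout replicates 2 and 5 and wild type replicates 1, 2 and 5 was left out (adjusted p 0.0515 to 0.136) or with upper-quartile factors or a replicate block.

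ndufaf3, which acts early in complex I assembly, had 51.1, 44.7, 52.9, 54.5 and 47.3 CPM in the double knockout and 40.7, 48.5, 47.4, 48.2 and 51.5 CPM in the aldh3a1 knockout. Its glo1 knockout values were 43.7, 43, 45.9, 45 and 41.3 CPM, against 35.6, 34.8, 35, 39.3 and 33 CPM in wild type. Each knockout stood above wild type without overlap, and the log2 fold change was 0.49 (SE 0.07, adjusted p = 1.26e-06) in the double knockout, 0.41 (SE 0.07, adjusted p = 7.52e-06) in the aldh3a1 knockout and 0.30 (SE 0.07, adjusted p = 0.00124) in the glo1 knockout. sdhaf1, which helps to insert iron-sulphur clusters into complex II, rose by 0.44 in the double knockout and 0.62 in the aldh3a1 knockout, both free of overlap with wild type. Its value in the glo1 knockout was 0.35, and that call was lost when any one of glo1 knockout replicates 1, 2 and 3 and wild type replicates 1, 3 and 5 was left out (adjusted p 0.0506 to 0.136) or with a fit of the 2 genotypes alone. sdhaf2, needed to attach the flavin to sdha, rose in the aldh3a1 knockout by 0.37 (adjusted p = 9.47e-04) and was not called in the double knockout (-0.01) or the glo1 knockout (-0.09). The inhibitor of ATP hydrolysis atp5if1a rose in all 3 knockouts, by 0.40, 0.37 and 0.25 in the double, aldh3a1 and glo1 knockouts.

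**Figure D4:**
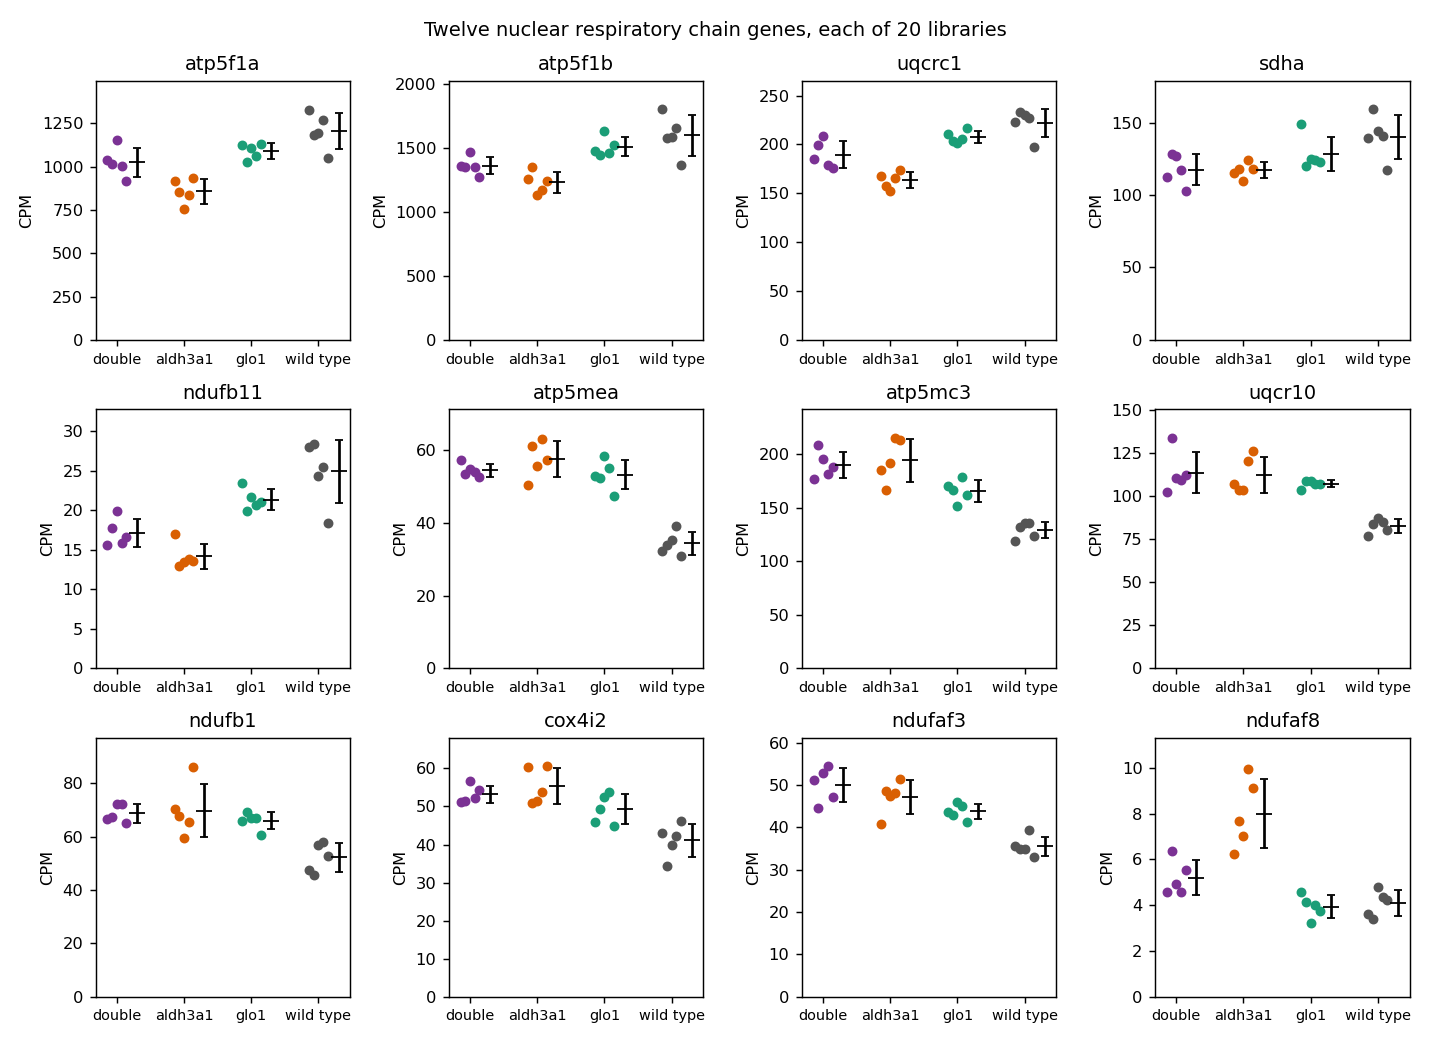
CPM (y axis from 0, a scale of its own in each panel) of 12 nuclear members in each of the 20 libraries, with the mean and SD of 5 libraries beside the points of each genotype. atp5f1a, atp5f1b, uqcrc1 and ndufb11 are lowest in the aldh3a1 knockout, at means of 858 ± 71.8, 1231 ± 83, 164 ± 8.36 and 14.2 ± 1.64 CPM, and atp5mea, atp5mc3, uqcr10, ndufb1 and ndufaf3 have all knockout libraries above wild type.

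Pairs of related genes were compared as count ratios within each library, which need no scaling between libraries. Of 14 pairs, the ratio differed from wild type in 11 in the double knockout (7 higher and 4 lower), in 8 in the aldh3a1 knockout (6 higher and 2 lower) and in 2 in the glo1 knockout (1 in each direction), by two-sided exact permutation tests adjusted over 45 tests, in which the smallest unadjusted p is 0.00794. The pair atp5mea and atp5meb, both for subunit e, shifted toward atp5mea by 0.26 on the log2 scale in the double knockout, 0.44 in the aldh3a1 knockout and 0.34 in the glo1 knockout (adjusted p = 0.0223 for each exact test). The pair atp5mc3 and atp5mc3b, both for subunit c, shifted toward atp5mc3 by 0.37 in the double knockout and 0.55 in the aldh3a1 knockout (adjusted p = 0.0223 for both exact tests), and by 0.21 in the glo1 knockout (adjusted p = 0.0824).

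For complex IV, the ratio of cox4i2 to cox4i1 was higher by 0.31 in the double knockout (adjusted p = 0.0446, exact test) and 0.48 in the aldh3a1 knockout (adjusted p = 0.0223), with 0.16 in the glo1 knockout (adjusted p = 0.206). ndufa4b and ndufa4, related genes for a subunit at the surface of complex IV, shifted toward ndufa4b by 0.17 in the double knockout and 0.51 in the aldh3a1 knockout (adjusted p = 0.0223 for both exact tests). The ratio of the 2 cox6a1 gene IDs (ENSDARG00000054588 to ENSDARG00000022438) differed from wild type by -0.63 in the double knockout (adjusted p = 0.0446, exact test), and -1.01 in the aldh3a1 knockout (adjusted p = 0.0223). For complex III, the ratio of uqcrc2 to uqcrc2a differed by -0.32 in the double knockout (adjusted p = 0.0223, exact test) and -0.14 in the glo1 knockout (adjusted p = 0.0446), against -0.09 in the aldh3a1 knockout (adjusted p = 0.294). In each comparison here at adjusted p = 0.0446 by the exact test, knockout and wild type libraries overlapped. For cox4i2 to cox4i1, wild type replicate 5, at -2.717, lay inside the double knockout range of -2.773 to -2.617. Near-identical copies can share reads, and the counting of such reads was not stated.

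**Figure D5:**
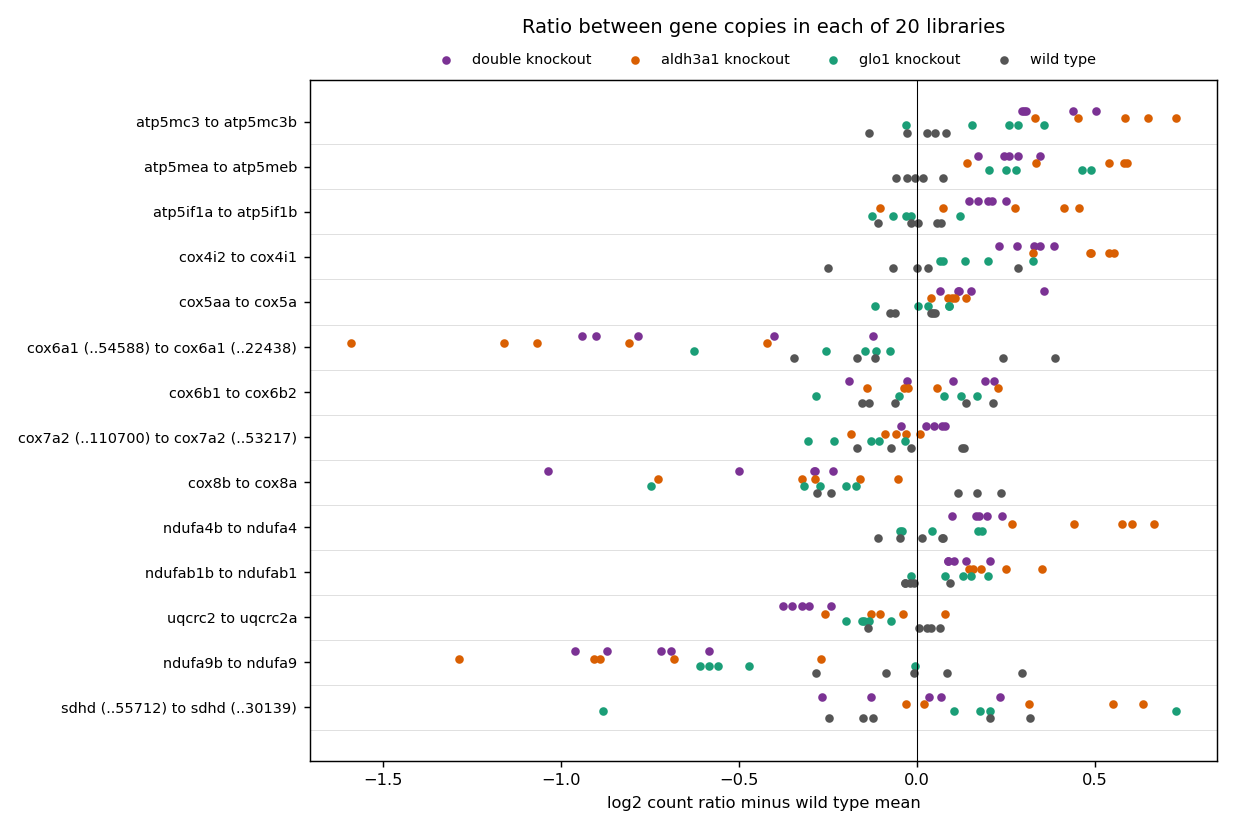
log2 count ratio within each of the 20 libraries, less the wild type mean (x axis), for 14 pairs of related members (y axis, gene IDs shortened to their last digits), with 1 point per library coloured by genotype. The ratio of atp5mea to atp5meb is above wild type in all 15 knockout libraries, and the ratio of ndufa4b to ndufa4 lies 0.17 above wild type on average in the double knockout and 0.51 above it in the aldh3a1 knockout.

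The double knockout was also set against each single knockout. Against the aldh3a1 knockout, 13 of 107 nuclear members were called higher and 3 lower, beside 11.1% and 11.6% of all genes. The count of higher nuclear members lay near the share over all genes. Of 13 mitochondrial genes, 6 were called lower. The higher genes included atp5f1a at 0.26 (SE 0.07, adjusted p = 0.00741), uqcrc1 at 0.21 (SE 0.06, adjusted p = 0.00696), uqcrc2a at 0.30 (SE 0.06, adjusted p = 8.60e-04), ndufv1 at 0.27 (SE 0.07, adjusted p = 0.00457) and ndufv3, a small subunit beside ndufv1, at 0.34 (SE 0.07, adjusted p = 8.60e-04). The 3 lower nuclear genes were the assembly factors ndufaf8 (-0.62), ndufaf4 (-0.45) and sdhaf2 (-0.38). Of the mitochondrial genes, mt-nd3 had -0.75 (SE 0.12, adjusted p = 1.70e-04) and mt-nd2 -0.56 (SE 0.10, adjusted p = 3.57e-04), both without overlap, and mt-nd1 and mt-nd4 had -0.31 and -0.33. The calls of mt-nd5 (-0.20) and mt-nd6 (-0.28) were lost in turn when any one of double knockout replicates 1, 2, 3 and 5 and aldh3a1 knockout replicates 2 and 4 was left out (adjusted p 0.0565 to 0.166) or with upper-quartile factors or a fit of the 2 genotypes alone and when any one of double knockout replicates 1, 2, 3 and 5 and aldh3a1 knockout replicates 4 and 5 was left out (adjusted p 0.0751 to 0.168) or with upper-quartile factors or no filter beyond 1 count or a fit of the 2 genotypes alone. The count of higher nuclear genes was 7 without aldh3a1 knockout replicate 3 or without double knockout replicate 3, and 21 without aldh3a1 knockout replicate 5. Over all genes 2106, 2007 and 2389 were called higher in those fits in turn, against 2458 in the main fit. The count of lower nuclear genes was 5 without aldh3a1 knockout replicate 3. Upper-quartile scaling gave 23 higher and 3 lower nuclear genes, and 1 higher and 4 lower mitochondrial genes. Over all genes that scaling called 2767 higher and 2033 lower, against 2458 and 2581 in the main fit.

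Against the glo1 knockout, 1 of 107 nuclear members was called higher and 6 lower, beside 4.52% of all genes higher and 6.82% lower. The count of lower nuclear members thus lay near the share over all genes. Of the 13 mitochondrial genes, 1 was called in each direction. The higher genes were ndufaf2, a complex I assembly factor, at 0.36 (SE 0.09, adjusted p = 0.0131), and mt-nd6 at 0.40 (SE 0.10, adjusted p = 0.0124), whose 2 groups did not overlap. The 6 lower nuclear genes were all complex I subunits, with ndufb6 at -0.27 (SE 0.07, adjusted p = 0.0125), ndufs8 at -0.25 (SE 0.06, adjusted p = 0.0122) and ndufc2 at -0.23 (SE 0.06, adjusted p = 0.015). The call of ndufb11 (-0.31) was lost when any one of double knockout replicates 1, 2, 4 and 5 and glo1 knockout replicates 1, 3, 4 and 5 was left out (adjusted p 0.0566 to 0.111) or with no filter beyond 1 count. That of ndufa7 (-0.29) was lost when any one of double knockout replicates 1, 4 and 5 and glo1 knockout replicates 2, 3 and 5 was left out (adjusted p 0.0603 to 0.0783). That of ndufa9 (-0.20) was lost when any one of double knockout replicates 1, 2, 4 and 5 and glo1 knockout replicates 1, 2, 3, 4 and 5 was left out (adjusted p 0.0505 to 0.127) or with no filter beyond 1 count or a replicate block. The count of lower nuclear genes was 3 without glo1 knockout replicate 3 or 5 or double knockout replicate 1, 4 or 5. Over all genes 749 to 1431 were called lower in those fits, against 1517 in the main fit. The count of higher nuclear genes was 2 without glo1 knockout replicate 3 or 4 or double knockout replicate 2, and 3 without double knockout replicate 1. The call of mt-nd4l, at -0.29, was lost when any one of double knockout replicates 1, 2, 3 and 5 and glo1 knockout replicates 1, 2, 3 and 5 was left out (adjusted p 0.0574 to 0.11) or with no filter beyond 1 count. The split of nuclear calls was 4 higher and 6 lower with RLE factors, 2 and 6 with upper-quartile scaling, and 3 and 6 with library sizes that left out ribosomal protein genes. Over all genes those settings called 1064, 995 and 1031 higher and 1463, 1529 and 1488 lower, against 1004 and 1517 in the main fit.

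Whether the 2 knockout changes added up on the log2 scale was tested with an interaction term. The summed changes of both single knockouts are subtracted from that of the double knockout. Each change is taken against the same wild type libraries, so a shift of those libraries alone would move the interaction term. It was called negative for 29 of 107 nuclear members and 11 of 13 mitochondrial genes, and positive for 5 nuclear members, beside 16.9% of all genes negative and 18.7% positive. The median was -0.07 for nuclear and -0.47 for mitochondrial genes, against 0.02 over all genes. The most negative members were mt-nd3 at -0.72 (SE 0.17, adjusted p = 0.00274), atp5mea at -0.71 (SE 0.10, adjusted p = 1.33e-05) and mt-nd6 at -0.67 (SE 0.14, adjusted p = 9.86e-04). For atp5mea the double knockout change of 0.66 thus lay near each single change (0.74 and 0.63) and below their sum. The positive members were ndufb11 at 0.50 (SE 0.14, adjusted p = 0.00795), atp5f1a at 0.40 (SE 0.10, adjusted p = 0.00246), uqcrc1 at 0.31 (SE 0.08, adjusted p = 0.00385), ndufv1 at 0.28 (SE 0.09, adjusted p = 0.0219) and atp5f1b at 0.23. The call of atp5f1b was lost without any one library other than double knockout replicate 5, aldh3a1 knockout replicate 2, glo1 knockout replicate 3 and wild type replicate 5 (adjusted p 0.0543 to 0.109), and with a replicate block, the non-robust fit or library sizes without ribosomal protein genes. The count of positive nuclear members was 13 without wild type replicate 5, and upper-quartile scaling gave 12 positive and 25 negative. Over all genes the interaction was positive for 4111 without wild type replicate 5, against 4157 in the main fit. With upper-quartile scaling it was positive for 4614 genes and negative for 3068, against 4157 and 3748 in the main fit.

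Other mitochondrial genes were counted for comparison. As a reference, 23.9% of all genes were called higher and 26.4% lower in the double knockout. Those shares were 29.4% and 32.0% in the aldh3a1 knockout, and 14.6% and 18.1% in the glo1 knockout. Of 75 genes of the mitochondrial ribosome, which translates the 13 mitochondrial messages, 52 were called higher in the double knockout (median log2 fold change 0.23), 67 in the aldh3a1 knockout (0.38) and 43 in the glo1 knockout (0.20), and the rest were not called. Without glo1 knockout replicate 1 or 4 or wild type replicate 5, 1 was called lower in the glo1 knockout. That count was also 1 with RLE factors, upper-quartile factors, a minimum mean of 1 CPM or a replicate block. Of 24 tested genes for complex IV assembly, 15 were called higher in the double knockout (0.32), 19 in the aldh3a1 knockout (0.47) and 13 in the glo1 knockout (0.29). In the aldh3a1 knockout 1 was called lower, but not without aldh3a1 knockout replicate 1 or 5 or wild type replicate 3 or 4. Among the higher genes coa6, which helps to deliver copper, rose by 0.81, 0.86 and 0.62. Of 41 genes for protein import and cristae, 21 were called higher and 4 lower in the double knockout, 26 and 4 in the aldh3a1 knockout, and 17 and 2 in the glo1 knockout, where at most 1 was called lower without glo1 knockout replicate 2, 3, 4 or 5 or wild type replicate 1, 2, 3 or 4. timm9, an import chaperone, rose by 0.57 in the double knockout and 0.78 in the aldh3a1 knockout, while chchd3b, related to a protein of the cristae junctions, had -1.24 and -1.05, both called lower.

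The enzymes that feed the chain were mostly lower in the aldh3a1 knockout. Beside them, 29.4% of all genes were called higher and 32.0% lower in that knockout. The double knockout had 23.9% and 26.4%, and the glo1 knockout 14.6% and 18.1%. Of 26 genes of the Krebs cycle and pyruvate dehydrogenase, 4 were called higher and 9 lower in the double knockout (median -0.05), 3 and 17 in the aldh3a1 knockout (-0.25), and 4 and 7 in the glo1 knockout (-0.01). In the glo1 knockout 3 were called lower without glo1 knockout replicate 3 or 4 or wild type replicate 1, and 4 without glo1 knockout replicate 2. suclg2, a subunit of succinyl-CoA ligase, had -0.69 in the double knockout and -0.99 in the aldh3a1 knockout, and idh2, the mitochondrial NADP-dependent isocitrate dehydrogenase, had 0.43 and 0.39, all called. Of 17 carriers and porins, 6 were called higher and 5 lower in the double knockout, 4 and 9 in the aldh3a1 knockout, and 5 and 3 in the glo1 knockout. Fewer were called lower without single libraries, namely 2 to 3 in the double knockout without its replicate 1 or 5 or wild type replicate 1 or 4, and 1 in the glo1 knockout without wild type replicate 1. slc25a4, an ADP/ATP carrier of muscle in mammals, had -0.98 in the aldh3a1 knockout. Of 21 tested genes for cytochrome c, coenzyme Q synthesis and other electron carriers, 4 were called in each direction in the double knockout, 8 in each in the aldh3a1 knockout and 3 in each in the glo1 knockout, where 7 were called higher without wild type replicate 2.

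Taking all genes, 23.9% were called higher and 26.4% lower in the double knockout. The aldh3a1 knockout had 29.4% and 32.0%, and the glo1 knockout 14.6% and 18.1%. Regulators of mitochondrial content were called in both directions, in the aldh3a1 knockout in numbers near those shares. Of 22 such genes, 3 were called higher and 8 lower in the double knockout, 7 and 8 in the aldh3a1 knockout, and 1 and 4 in the glo1 knockout, where 2 were called higher without glo1 knockout replicate 1 or wild type replicate 1, 2 or 4. In the double knockout 5 were called higher without its replicate 3 and 1 without its replicate 5. ppargc1a, the coactivator PGC-1alpha, was lower in all 3 knockouts, with log2 fold changes of -1.04, -1.21 and -0.58 in the double, aldh3a1 and glo1 knockouts. esrrg, a nuclear receptor that works with it, had -0.98, -1.21 and -0.54 in the same order. nrf1, a transcription factor of many respiratory chain genes in mammals, rose by 0.52 in the aldh3a1 knockout. Of 23 genes that replicate, transcribe and process mitochondrial DNA and RNA, 6 were called higher and 2 lower in the double knockout, 9 and 2 in the aldh3a1 knockout, and 4 and 1 in the glo1 knockout, where 2 were called higher without glo1 knockout replicate 1 or wild type replicate 1 or 4. polrmt, the mitochondrial RNA polymerase, had -0.36 in the double knockout and -0.48 in the aldh3a1 knockout, and lrpprc, which stabilises mitochondrial messages in mammals, had -0.42 and -0.34. Among the more numerous higher genes of this list, polg2 had 0.6 in the double knockout and 0.68 in the aldh3a1 knockout. mgme1 had 0.61 in the double knockout and mtpap 0.5 in the aldh3a1 knockout. Of 24 tested genes of mitochondrial stress and proteases, 4 were called higher and 5 lower in the double knockout, 5 and 6 in the aldh3a1 knockout, and 4 in each direction in the glo1 knockout, where 2 were called lower without glo1 knockout replicate 2, 4 or 5 or wild type replicate 1 or 2. The counts of this list lay near or below the shares of all genes. atf4a, a transcription factor of the stress response, had 0.50 in the double knockout and 0.51 in the aldh3a1 knockout. shmt2 and pck2 of the same list were called lower, at -0.72 and -0.54 in the double knockout and -0.75 and -0.85 in the aldh3a1 knockout. Of 11 tested mitochondrial antioxidant genes, 4 were called higher and 2 lower in the double knockout, 4 and 3 in the aldh3a1 knockout, and 3 and 2 in the glo1 knockout, where at most 1 was called lower with any single library of either genotype left out. Of 13 further assembly genes of complexes I, III and V, 5 were called higher and 2 lower in the double knockout, 10 and 2 in the aldh3a1 knockout, and 6 higher in the glo1 knockout, with the remaining 7 not called. The higher genes numbered 8 in the double knockout without wild type replicate 2. In the glo1 knockout they numbered 3 without glo1 knockout replicate 1 or wild type replicate 3, and 2 without wild type replicate 1.

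Markers of several tissues that contribute to whole larvae differed between genotypes, while some counts lay near the shares over all genes. For all genes the shares called higher and lower were 23.9% and 26.4% in the double knockout. They were 29.4% and 32.0% in the aldh3a1 knockout, and 14.6% and 18.1% in the glo1 knockout. Of 33 skeletal muscle genes, 4 were called higher and 9 lower in the double knockout, 1 and 30 in the aldh3a1 knockout, and 3 in each direction in the glo1 knockout. The count of lower muscle genes in the double knockout lay near the share over all genes, and both counts in the glo1 knockout lay below the shares. Without aldh3a1 knockout replicate 3, 2 were called higher in that knockout. Without wild type replicate 5, 17 were called lower in the double knockout and 10 in the glo1 knockout, and without glo1 knockout replicate 1 or 4, 5 in the glo1 knockout. Their summed level was 65402.6 to 89192 CPM in the double knockout, 34680.2 to 53945 CPM in the aldh3a1 knockout and 74561 to 84470.5 CPM in the glo1 knockout, against 68747 to 83080.0 CPM in wild type. The aldh3a1 knockout libraries thus had a lower sum of these 33 markers than any other library. Its relation to the lower atp5f1a, atp5f1b and uqcrc1 and the higher mitochondrial genes was not tested. Of 13 tested heart genes, 4 were called lower in the double knockout and 12 in the aldh3a1 knockout, and 1 was called higher and 5 lower in the glo1 knockout (3 lower at a mean of at least 1 CPM). Their summed level was 210.2 to 275.4 CPM in the double knockout, 144.0 to 189.5 CPM in the aldh3a1 knockout and 303.5 to 372.4 CPM in the glo1 knockout, against 227 to 292.1 CPM in wild type. The double knockout count of lower heart genes lay near the share over all genes, and its sums overlapped wild type. The glo1 knockout sums lay above every wild type library, although more heart genes were called lower there than higher. Of 16 tested liver genes, 2 were called higher and 14 lower in the double knockout, 1 and 13 in the aldh3a1 knockout, and 1 and 11 in the glo1 knockout. The higher genes numbered 1 in the double knockout without its replicate 2 or wild type replicate 2 or 5. The liver genes had summed levels of 838 to 1092 CPM, 592 to 989 CPM and 1081 to 1286 CPM, against 1313 to 2818 CPM in wild type.

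Among all genes, 23.9%, 29.4% and 14.6% were called higher in the double, aldh3a1 and glo1 knockouts, and 26.4%, 32.0% and 18.1% lower. Of 83 cytosolic ribosomal protein genes tested, 81 were called higher in the double knockout, 80 in the aldh3a1 knockout and 75 in the glo1 knockout. Their summed level was 112674 to 122249 CPM in the double knockout, 116253 to 144126 CPM in the aldh3a1 knockout and 92687 to 106021 CPM in the glo1 knockout, against 75545 to 89151 CPM in wild type. With these genes left out of the library sizes, 57 nuclear members were called higher and 12 lower in the double knockout, 49 and 18 in the aldh3a1 knockout, and 49 and 1 in the glo1 knockout. Over all genes those library sizes called 5748, 6784 and 3703 higher in the same order, against 5319, 6527 and 3253 in the main fit. Lower genes numbered 5650, 6964 and 3790, against 5871, 7110 and 4033. Of 15 neuronal genes, 5 were called higher and 4 lower in the double knockout, 10 and 3 in the aldh3a1 knockout, and 4 and 2 in the glo1 knockout. The counts of lower neuronal genes lay near or below the shares over all genes. In the glo1 knockout 2 were called higher without its replicate 2 or 3 or wild type replicate 2, and 5 lower without its replicate 3. Of 10 enterocyte genes, 9 were called lower in each knockout. Of 14 genes of the exocrine pancreas, 11 were called lower in the double knockout and 14 in the aldh3a1 knockout, and their median log2 fold change in the glo1 knockout was -0.59, where 1 was called lower without wild type replicate 3 or 5, with the non-robust fit or by DESeq2. Of 8 tested erythrocyte genes, 3 were called higher in the double knockout, 2 in the aldh3a1 knockout and 2 in the glo1 knockout. The aldh3a1 knockout count of higher erythrocyte genes lay near the share over all genes. In the aldh3a1 knockout 1 was called lower with upper-quartile factors, a minimum mean of 1 CPM, the non-robust fit or DESeq2. Without its replicate 4 or wild type replicate 5, 1 was also called lower there, and 2 without its replicate 2. In the glo1 knockout 1 was called lower with the 2 genotypes fitted alone or without its replicate 2 or wild type replicate 3. The part that tissue make-up and the level of ribosomal protein transcripts take in the values of the respiratory chain genes was not tested.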

How the data were processed

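The members and gene lists were chosen with earlier results of these data known. Messenger RNA of whole larvae was sequenced from strand-specific DNBSEQ libraries after RNeasy extraction, per the labels' protocols. The authors deposited raw counts per gene, made with featureCounts 2.0.3 on GRCz11, per the submitters' processing notes. Aligner, annotation and strand setting are not given in the sources used here. Gene IDs were paired with Ensembl symbols (29201 of 32520), and RefSeq on GRCz12tu was used only for names and neighbours. Each genotype had 5 libraries of 35092716 to 37190519 counts, grouped by the genotype label.

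Counts of 22234 genes that passed filterByExpr were fitted with edgeR 4.0.16 (R 4.3.3; TMM factors, robust quasi-likelihood test, 1 fit over 20 libraries), with Benjamini-Hochberg adjustment over all genes. The common biological coefficient of variation was 0.13. Shares and ratios were compared by two-sided exact permutation tests (scipy 1.17.1), and DESeq2 1.42.0 was an alternative. Simulated data for the aldh3a1 knockout against wild type held 22234 genes of all levels. Of these, 50 were changed at each size, picked only among genes with a mean of at least 20 counts. There 12% of 1.2-fold, 74% of 1.5-fold, 84% of 2-fold and 98% of 4-fold changes were called, with 5 false calls. Far more genes were called in the data (6527 higher and 7110 lower), so the adjusted threshold was stricter in the simulation. Its rates thus do not give the power or the false calls of the real comparison.

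The genes named were the 13 mitochondrial genes, the largest called changes in each complex and direction at a mean of at least 5 CPM, subunits with set roles, related gene pairs, and up to 2 genes per list and direction. Other members were named after their values were seen. Further alternatives were other scaling, filters, library sizes without mitochondrial or ribosomal protein genes, 2 genotypes per fit, a replicate block and leaving out each library. Whether equal replicate numbers pair the samples is not known, and the main fit took the libraries as unpaired. Deviations of same-numbered libraries had correlations of -0.233 to 0.328, with 7 of 30 pairs over 0.1. Such correlations cannot exclude a shared clutch or batch. Replicates of a genotype differed by 6.29 to 44.8 times the sampling variance of their counts.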

Additional observations from a re-analysis of the deposited data

Results flagged for a closer look

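Single libraries stood apart from the other 4 of their genotype in 17 of 280 sets of values, where chance flags about 1 in 20. The count of flags is close to that share, but the sets come from the same libraries, so chance cannot be judged from it. Wild type replicate 5 was apart in 5 of the 17 sets. It had 44.4 CPM for ndufb6, 197.0 CPM for uqcrc1, 114.1 CPM for uqcrc2, 124.9 CPM for uqcrc2a and 191.5 CPM for cyc1. Wild type replicate 2 was apart at 20.1 CPM for sdhaf2. Double knockout replicate 4 was apart at 6042.0 CPM for mt-co3, and replicate 3 at 23.3 CPM for cox7a1. In the aldh3a1 knockout, replicate 4 was apart at 264.2 CPM for mt-atp8 and 10.5 CPM for sdhaf1, and replicate 1 at 17.0 CPM for ndufb11. In the glo1 knockout, replicate 1 was apart at 763.6 CPM for mt-nd5, 148.9 CPM for sdha and 168.4 CPM for sdhb, replicate 2 at 17.9 CPM for cox7a2 (ENSDARG00000110700), replicate 3 at 1066.0 CPM for mt-nd2 and replicate 5 at 91.8 CPM for ndufb7.

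By the edgeR interaction, the double knockout change differed from the sum of the single knockout changes for 31 of 59 named members tested. Of these calls 26 were negative and 5 positive. Each change was taken against the same wild type libraries, and a shift of those libraries alone would move the interaction. Some members were named because of a called interaction or a called change, so this count cannot be set against all genes. Over all 120 tested members the interaction was called negative for 40 and positive for 5, beside 16.9% and 18.7% of all genes. Among mitochondrial genes the log2 interaction was -0.72 for mt-nd3, -0.67 for mt-nd6, -0.57 for mt-co2, -0.54 for mt-co3, -0.51 for mt-nd4, -0.47 for mt-nd1 and mt-nd2, -0.43 for mt-atp6, -0.34 for mt-cyb, -0.33 for mt-nd5 and -0.28 for mt-co1. Among assembly factors it was -0.57 for ndufaf8, -0.53 for ndufaf4 and sdhaf1 and -0.51 for sdhaf4. Among nuclear subunits of complexes I and III it was -0.41 for ndufs8, -0.37 for ndufa7, -0.36 for ndufb1 and uqcr10, -0.34 for ndufa6 and -0.28 for uqcrh. For complexes IV and V it was -0.71 for atp5mea, -0.39 for atp5mc3, -0.32 for cox4i2, -0.29 for cox6b2 and -0.25 for cox7a2 (ENSDARG00000053217). The positive values were 0.5 for ndufb11, 0.4 for atp5f1a, 0.31 for uqcrc1, 0.28 for ndufv1 and 0.23 for atp5f1b. The calls of ndufaf8 and sdhaf1 were lost in turn when any one of double knockout replicate 1, aldh3a1 knockout replicates 4 and 5, glo1 knockout replicate 1 and wild type replicates 1 and 2 was left out (adjusted p 0.0524 to 0.0638) and when any one of aldh3a1 knockout replicate 4 and glo1 knockout replicate 1 was left out (adjusted p 0.0503 to 0.054).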

How the results depend on the processing

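Against wild type, the counts of nuclear and mitochondrial members called in each direction stayed within 1.5 times their reported values under every setting other than leaving out a library, except that 1 mitochondrial gene was called lower in the aldh3a1 knockout when only the 2 genotypes compared were fitted. For the double against the aldh3a1 knockout, higher nuclear members numbered 23 with upper-quartile factors, 20 at a mean of at least 1 CPM and 20 with library sizes without cytosolic ribosomal protein genes, lower nuclear members 5 with DESeq2, and higher mitochondrial members 1 with upper-quartile factors, 1 at a mean of at least 1 CPM and 1 with the replicate block. For the double against the glo1 knockout, higher nuclear members numbered 4 with RLE factors, 2 with upper-quartile factors, 3 with no filter beyond 1 count, 4 at a mean of at least 1 CPM, 3 without ribosomal protein genes, 6 with 2 genotypes fitted and 5 with DESeq2. Higher mitochondrial members then numbered 3 with 2 genotypes fitted. With no filter beyond 1 count mt-nd4l was no longer called lower, which took that count to 0 by edgeR, against 1 by DESeq2. Positive interactions of nuclear members numbered 12 with upper-quartile factors. With sums scaled by TMM factors, the nuclear share differed by 0.0682 between double knockout and wild type and by 0.0909 between glo1 knockout and wild type, both with the sign turned, by -0.0161 between aldh3a1 knockout and wild type and by -0.0227 between double and glo1 knockout, and the mitochondrial share by -0.343 between double and aldh3a1 knockout. The cause of these shifts was not tested. Calls over all genes moved with the setting as well. With a minimum mean of 1 CPM, 2390 of 18847 genes were called higher in the double than in the aldh3a1 knockout. With 2 genotypes fitted, 1393 of 21490 genes were called higher in the double than in the glo1 knockout. The main fit called 2458 and 1004 of 22234 genes higher in those comparisons.

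When each library was left out, the nuclear members called higher numbered 42 to 53 in the double knockout, 39 to 51 in the aldh3a1 knockout and 34 to 48 in the glo1 knockout against wild type, and those called lower 11 to 15, 17 to 23 and 0 to 4 in that order. The mitochondrial members called higher numbered 8 to 9, 11 to 11 and 5 to 8 in that order, and those called lower in the aldh3a1 knockout 1 to 2. For the double against the aldh3a1 knockout the ranges were 7 to 21 nuclear higher, 3 to 5 nuclear lower, 0 to 1 mitochondrial higher and 4 to 6 mitochondrial lower. For the double against the glo1 knockout they were 1 to 3 nuclear higher, 3 to 7 nuclear lower and 0 to 1 mitochondrial lower. Over all genes, 2007 to 2432 were called higher and 1472 to 2541 lower in the double against the aldh3a1 knockout. Against the glo1 knockout 553 to 1035 of all genes were called higher and 749 to 1431 lower. The interaction was positive for 4 to 13 and negative for 26 to 37 nuclear members. The nuclear share differed by -0.106 to -0.072 percentage points between double knockout and wild type and by -0.0916 to -0.0624 between double and glo1 knockout, and the second call was lost without any one of double knockout replicates 1, 4 and 5 and glo1 knockout replicates 1, 3 and 5. The exact test on fewer libraries has a larger smallest p, so such a loss does not by itself show dependence on the library. Without glo1 knockout replicate 1 the difference was -0.0767, against -0.0761 with all libraries.

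The fit with a replicate block called 48 nuclear members higher and 12 lower in the double knockout, 43 and 19 in the aldh3a1 knockout and 41 and 1 in the glo1 knockout. Over all genes it called 5237 higher and 5802 lower, 6441 and 7070, and 3169 and 3928 in that order. Ratios of related genes had no fit with a block. Leaving out libraries for them was an alternative chosen after seeing the data, and its outcomes are not given here. The planned comparison of promoter windows was not run, because no promoter sequences were used here. At this depth ndufb4 and ndufs1, with mean counts of 1.9 and 0.75, could not be tested.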
